A study of Mus musculus with 8 samples.

Results

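The 10 genes described here are markers of the primitive endoderm. They were chosen by name and matched to the 43309 gene identifiers of the count table without the version number. They comprise the transcription factors Gata4, Gata6, Sox7, Sox17 and Foxa2, the receptor Pdgfra, the endocytic adaptor Dab2, the endocytic receptor Cubn and the matrix proteins Lama1 and Sparc. Their RNA was counted in 8 libraries of mouse ES cells of line J1, strain 129SV, grown in serum medium on gelatin without feeder cells. The cells were lysed directly and amplified with the SMARTer Ultra Low RNA kit v3, which makes full-length cDNA from very little RNA, and the cDNA was then built into Nextera libraries. Genotype and cell number formed 4 groups of 2 libraries. Cells labelled wild type for Zbtb24 (2lox/+, WT) and cells labelled knockout (1lox/1lox, KO) were each taken at 1000 cells (about 10 ng RNA, 10 PCR cycles) and at 100 cells (about 1 ng RNA, 18 PCR cycles). Cell number and PCR cycles therefore changed together and cannot be told apart. The submitters describe the 2 libraries of a group as clones of the genotype. The sources used here do not give which clone gave which library, so the 2 inputs may hold the same clones. P-values measure the spread between these libraries.

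The primitive endoderm is the extraembryonic layer that separates from the epiblast in the inner cell mass of the blastocyst. FGF signal and Gata6 favour it, Nanog opposes it, and the factors Sox17, Gata4 and Sox7 mark its further steps. It gives rise to the parietal endoderm, which secretes the laminin and collagen of Reichert's membrane, and to the visceral endoderm, which takes up and secretes nutrients and serum proteins. ES cells correspond to the epiblast, and cultures in serum are known to hold a few cells that express primitive endoderm genes. In bulk libraries such as these, fewer cells of a type and less RNA per cell cannot be told apart.

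Total counts ranged from 9666985 to 16686525 per library. Levels are given as cpm, the count scaled to the TMM-adjusted library size, and 3 counts, taken here as the limit of detection, correspond to 0.173 to 0.296 cpm. Such limits and the intervals below cover counting error only. All 10 ES cell markers had more than 3 counts in every library. Zbtb24, the targeted gene, measured 14.1 and 16.4 cpm in WT and 40.8 and 37.7 cpm in KO at 1000 cells, and 19.5 and 20.3 cpm in WT and 39.7 and 37.3 cpm in KO at 100 cells. Its counts were thus higher in the libraries labelled KO, against the label, and a count over the whole gene cannot show a missing exon. WT and KO below mean the libraries so labelled. Libraries of different groups also stood apart in other ways. Both KO libraries at 100 cells held transcripts of other tissues, such as the myelin gene Mbp with 1416 and 1360 counts against at most 34 in the other 6 libraries. The WT replicates at 100 cells differed most from each other, with a chi-square per degree of freedom of 17.6 against 1.99 to 3.28 in the other groups.

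Among the 10 genes, Sparc and Lama1 held nearly all counts. Sparc, a secreted glycoprotein of the matrix that parietal endoderm makes in large amounts, gave 91.9% to 93.9% of the summed counts of the 10 genes in each library. Lama1, the laminin alpha chain of early basement membranes, gave another 4.57% to 6.13%. The other 8 genes together reached 5.96 to 10.2 cpm.

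Per kilobase of exon, Sparc had a mean of 102.0 cpm per kb over the 8 libraries, above 96.4% of the tested genes. Lama1 had 2.29 cpm per kb, close to the median of the tested genes of 2.51 cpm per kb. Dab2 and Sox7 followed with 0.395 and 0.371 cpm per kb, and Gata6 with 0.260 cpm per kb. The group means of these 3 genes overlapped, from 0.363 to 0.420 cpm per kb for Dab2, 0.245 to 0.508 for Sox7 and 0.128 to 0.542 for Gata6, so their order was not resolved. Sox17 had 0.118 cpm per kb, and its group means of 0.0244 to 0.244 also overlapped those of Gata6. Gata4 with 0.0493 cpm per kb, Cubn with 0.0490 and Pdgfra with 0.0337 did not differ from each other beyond their spread, and Foxa2 had no count. The plot of member levels shows this range.

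**Figure D1:**
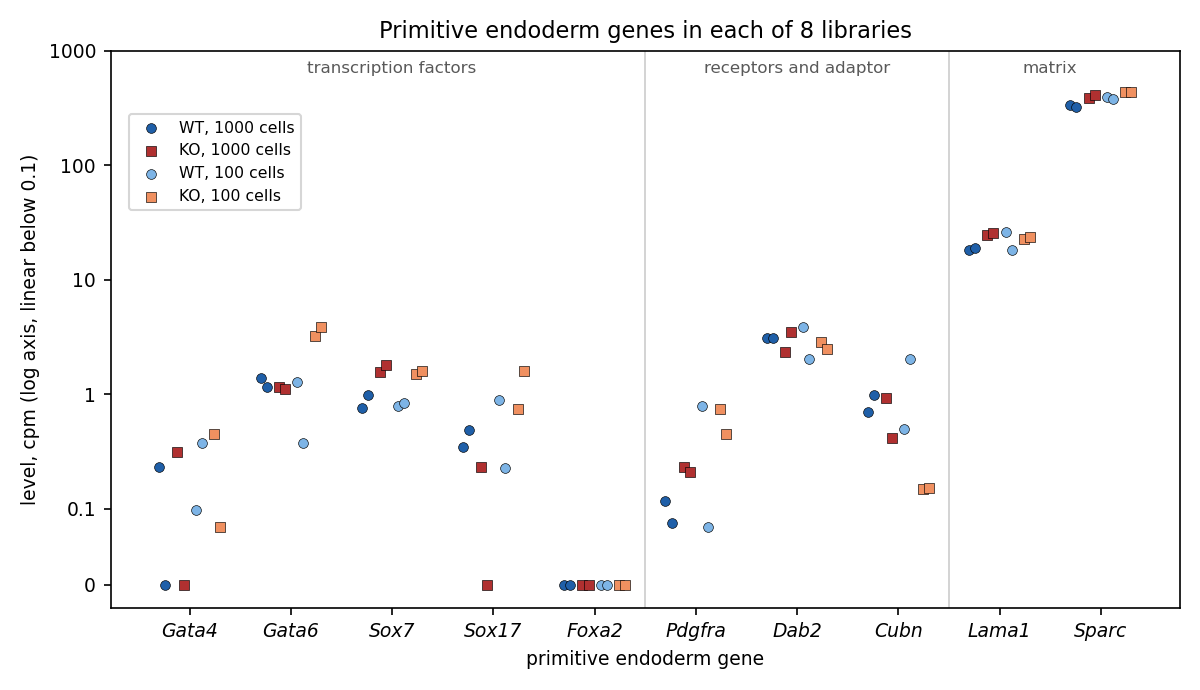
Level of each of the 10 primitive endoderm genes in cpm (vertical axis, logarithmic above 0.1 and linear below it) in each of 8 libraries, 1 point per library, with WT as circles and KO as squares. Sparc lies above 320 cpm and Lama1 above 18 cpm in every library, the other genes lie below 4 cpm, and Foxa2 is at 0 throughout.

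The genes at both ends of this range are shown with 300 bases around a start site, 250 before and 50 after it, from RefSeq on GRCm38.p6. Such sequences were matched for 5 of the 10 genes (Sparc, Foxa2, Dab2, Pdgfra and Cubn). Capitals mark the motifs that were searched on either strand, namely AGATAA (letters read by GATA factors), TATAAA (letters read by the TATA-binding protein) and AACAAT (letters read by SOX factors). The window of Sparc lies at chr11:55420031-55420330 on the minus strand and that of Foxa2, the one of 3 Foxa2 starts with a match, at chr2:148045415-148045714 on the minus strand.
Sparc: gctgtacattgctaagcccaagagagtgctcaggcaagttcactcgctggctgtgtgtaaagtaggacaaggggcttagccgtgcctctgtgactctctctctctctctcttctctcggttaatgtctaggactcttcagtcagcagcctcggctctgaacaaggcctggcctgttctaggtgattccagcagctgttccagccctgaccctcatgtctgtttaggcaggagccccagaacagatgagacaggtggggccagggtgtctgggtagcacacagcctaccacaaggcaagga
Foxa2: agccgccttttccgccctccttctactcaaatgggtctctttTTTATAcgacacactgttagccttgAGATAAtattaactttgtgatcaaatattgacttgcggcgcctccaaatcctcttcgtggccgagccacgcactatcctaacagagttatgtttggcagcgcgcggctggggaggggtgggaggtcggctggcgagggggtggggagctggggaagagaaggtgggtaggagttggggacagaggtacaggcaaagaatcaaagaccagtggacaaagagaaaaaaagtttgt
The Sparc window held none of the 3 motifs, 55.3% G or C and 4 CpG. The Foxa2 window held AGATAA and, read on the other strand as TTTATA, the TATA motif, with 51.7% G or C and 13 CpG. Over 32817 RefSeq windows of the same length, 11.2% held the first of these motifs, 13.6% the second and 10.7% the third, and the medians were 52.7% G or C and 7 CpG. These matches describe the letters of the windows.

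Gata6, the zinc finger factor that specifies primitive endoderm (ENSMUSG00000005836.8, chromosome 18, 11052064 to 11085635, GRCm38), had 24 and 14 counts in WT and 15 and 16 in KO at 1000 cells, and 13 and 5 in WT and 43 and 51 in KO at 100 cells. Its levels were 1.39 and 1.15 cpm in WT and 1.17 and 1.11 cpm in KO for the larger input. For 100 cells they were 1.28 and 0.377 cpm in WT and 3.21 and 3.85 cpm in KO. Both KO libraries at 100 cells thus lay above all 6 others, which overlapped each other. The KO/WT log2 ratio was -0.17 (SE 0.421, adjusted p = 0.780) at 1000 cells and 2.11 (SE 0.497, adjusted p = 0.0106) at 100 cells by edgeR's quasi-likelihood test, Benjamini-Hochberg adjusted over all 16816 tested genes. Between inputs the log2 ratio was 1.63 in KO (SE 0.305, adjusted p = 3.29e-05) and -0.68 in WT (adjusted p = 0.744). The difference of the KO/WT log2 ratios between inputs was 2.33 (SE 0.654, adjusted p = 0.0268). It missed the threshold under DESeq2 (adjusted p = 0.0654), with counts thinned to the smallest total (0.0767) and when any of the 4 libraries at 1000 cells or either KO library at 100 cells was left out (0.0584 to 0.119). The KO/WT log2 ratio at 100 cells was 3.16 without WT replicate 1 and 1.41 without WT replicate 2, and it missed the threshold without KO replicate 2 (adjusted p = 0.0754). Gata6 in KO stayed called between inputs when any single library was left out, at log2 ratios of 1.497 to 1.761. The gene 1010001N08Rik overlaps 93 bases of Gata6 exons on the other strand, and counting ignored strand.

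The same KO libraries at 100 cells held more RNA of other cell types, and these values moved with the Gata6 result. Summed oligodendrocyte markers were 256.0 and 263.7 cpm there against 42.9 to 53.5 cpm in the other 6 libraries, with 7 of 7 markers above 3 counts against 5 or 6. The astrocyte list was at 250.5 and 257.5 cpm against 169.4 to 213.9 cpm, with 7 of 7 markers above 3 counts against 3 to 5. Its member Gja1 went the other way, with 41.3 and 42.7 cpm there against 105.2 to 132.2 cpm in WT. Gja1 was also low in KO at 1000 cells (41.1 and 32.9 cpm). Aldoc, at 149.9 and 145.7 cpm there, was already at 127.6 and 109.4 cpm in KO at 1000 cells. In WT Aldoc was at 46.2 to 64.1 cpm. The fibroblast list was at 6.34 and 6.80 cpm against 2.21 to 4.33 cpm, with 5 or 6 of 8 markers above 3 counts against 2 to 4. Oligodendrocyte precursor markers reached 18.6 cpm in both against 9.48 to 11.7 cpm. Summed neuron markers overlapped, with 526.4 and 543.4 cpm against 401.7 to 527.9 cpm, but the synaptic gene Snap25 had 1121 and 1021 counts against at most 44. Of the 8 neuron markers, 6 were called higher and 1 lower in KO against WT at 100 cells, with a median log2 ratio of 2.57. Over all tested genes 17.6% were called higher and 16.6% lower there. Endothelium and blood markers were at 93.5 and 97.6 cpm, within the range of 68.0 to 100.8 cpm elsewhere, although the haemoglobin gene Hbb-bs had 8 and 12 counts against 0 in all other libraries. Trophoblast markers were at 77.9 and 80.1 cpm against 35.96 to 59.9 cpm, yet 2 or 3 of 7 had more than 3 counts and 3 were at 0. Definitive endoderm and primitive streak markers, the cells that share several of these genes, were at 14.4 and 15.1 cpm against 12.6 to 14.6 cpm, and the smallest adjusted p of the 6 tested over all comparisons was 0.0811 (Eomes, KO against WT at 100 cells). Each list was led by a gene present in every library, namely Cnp for oligodendrocytes (26.5 to 57.5 cpm), Olig1 for their precursors (5.14 to 13.2 cpm), Aldoc for astrocytes (46.2 to 149.9 cpm), Stmn2 for neurons (341.6 to 492.1 cpm), Thy1 for fibroblasts (1.25 to 3.52 cpm), Pecam1 for endothelium (65.6 to 100.02 cpm), Tfap2c for trophoblast (28.2 to 75.1 cpm) and Eomes for the primitive streak (4.35 to 7.78 cpm). The part of other cell types in the Gata6 result was not tested.

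**Figure D2:**
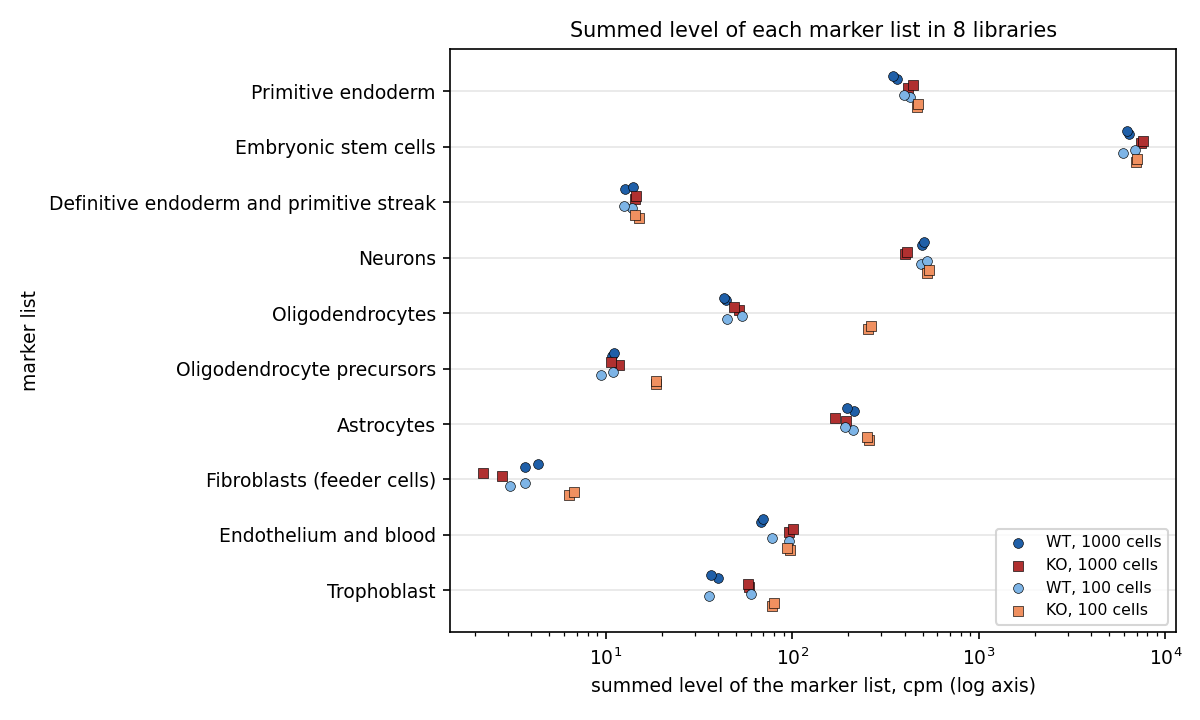
Summed level in cpm (horizontal axis, logarithmic) of each marker list in each of 8 libraries, 1 point per library. Both KO libraries at 100 cells stand to the right for oligodendrocytes (256.0 and 263.7 cpm), astrocytes (250.5 and 257.5 cpm) and fibroblasts (6.34 and 6.80 cpm), and lie near the others for ES cells and definitive endoderm.

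Sox17, an SRY-box factor of primitive and definitive endoderm (ENSMUSG00000025902.9, chromosome 1, 4490931 to 4497354), had 6 and 6 counts in WT and 3 and 0 in KO at 1000 cells, and 9 and 3 in WT and 10 and 21 in KO at 100 cells. The KO libraries at 1000 cells were at or below 3 counts, and the 2 KO libraries at 100 cells overlapped WT. At 1000 cells the KO/WT ratio of summed counts, scaled by library size, was 0.270 (95% exact interval 0.0489 to 1.00; edgeR adjusted p = 0.187). At 100 cells the KO/WT log2 ratio was 1.09 (SE 0.732, adjusted p = 0.277), and without WT replicate 1 it was 2.28 and passed the test (adjusted p = 0.0121). In KO the 100 to 1000 cell ratio was 10.6 (interval 3.31 to 54.2; adjusted p = 0.000674), and in WT the log2 ratio was 0.36 (adjusted p = 0.929). The test of the difference between genotypes gave an adjusted p of 0.143. Sox17 passed the filter on low counts only through the KO libraries at 100 cells, so the filter and contrasts with those libraries are not independent. It is also the sole member on chromosome 1, where 500 genes had a median KO/WT log2 ratio of 0.55 (1000 cells) and 0.45 (100 cells). Over all such genes the median was 0.02 and -0.04, and on the chromosomes of the other members it lay between -0.05 and 0.10 at 1000 cells and between -0.14 and -0.02 at 100 cells. Sox17 at 1000 cells thus had a ratio below 1 on a chromosome whose median lay above it. With a mean of 0.565 cpm, Sox17 itself lay below the cut of 10 cpm. In GENCODE M21 the predicted gene Gm37587 overlaps 16.9% of Sox17 exon bases on the other strand. Counting used GENCODE M4, and whether this overlap affected the low counts of Sox17 was not tested. Annotated genes also overlap 6.504% of the exon bases of Pdgfra, 2.87% of Dab2 and 2.46% of Cubn, and none of Gata4, Sox7, Foxa2, Lama1 or Sparc.

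**Figure D3:**
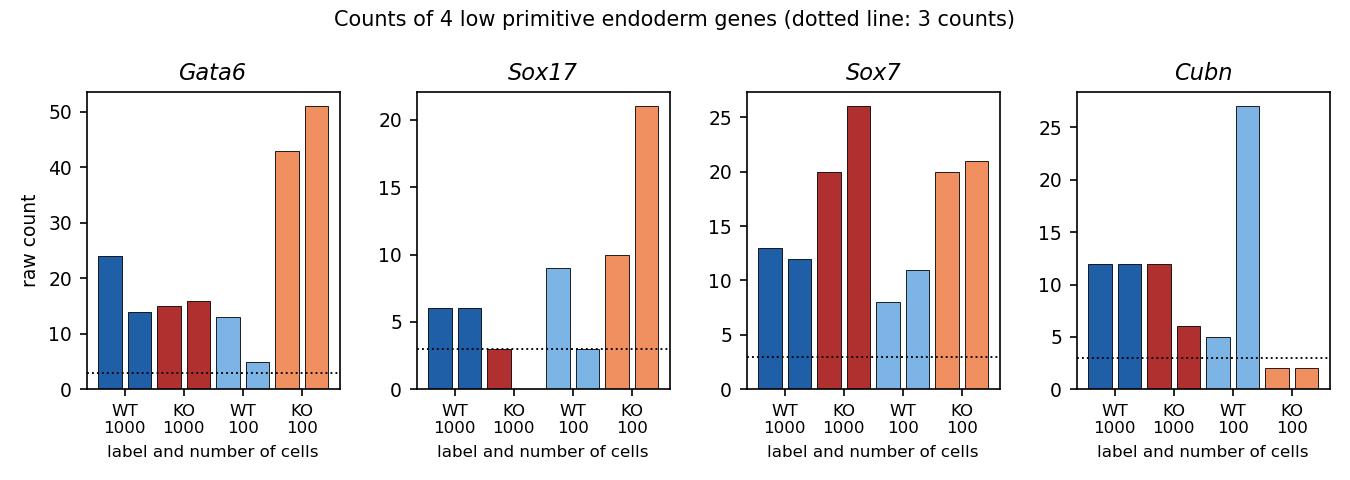
Raw counts (vertical axes, from 0) of Gata6, Sox17, Sox7 and Cubn in each of 8 libraries, 1 bar per library, with a dotted line at 3 counts. Gata6 reaches 43 and 51 counts in KO at 100 cells, Sox7 has 20 to 26 counts in KO against 8 to 13 in WT, and Cubn has 2 counts in each KO library at 100 cells.

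Sox7, an SRY-box factor that follows Gata6 in primitive endoderm (ENSMUSG00000063060.5, chromosome 14, 63943673 to 63950732), had levels of 0.752 and 0.981 cpm in WT and 1.55 and 1.80 cpm in KO from 1000 cells. From 100 cells it had 0.790 and 0.829 cpm in WT and 1.49 and 1.59 cpm in KO. All 4 KO libraries lay above all 4 WT libraries, and Sox7 was the only one of the 10 genes for which this held in either direction. Across all tested genes, 14.1% had all KO libraries above all WT libraries and 13.9% had them below. From 1000 cells the KO/WT log2 ratio was 0.97 (SE 0.423), and from 100 cells 0.87 (SE 0.469). Neither passed edgeR's test (adjusted p = 0.0661 and adjusted p = 0.178), and the ratios differed by -0.05 between inputs (adjusted p = 0.970). Sox7 was counted 8 to 26 times per library.

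Gata4, the GATA factor that follows Gata6 in primitive endoderm (ENSMUSG00000021944.11, chromosome 14, 63198922 to 63271692), had 4 and 0 counts in WT and 4 and 0 in KO at 1000 cells, and 1 and 5 in WT and 6 and 1 in KO at 100 cells. Every group overlapped every other, and with at most 6 counts it was not tested. Foxa2, a forkhead factor of visceral and definitive endoderm (ENSMUSG00000037025.7, chromosome 2, 148042877 to 148046969), had 0 counts in all 8 libraries, which allows up to 0.173 to 0.296 cpm depending on the library. Summed over the 5 factors, the level was 2.72 and 2.62 cpm in WT and 3.26 and 2.91 cpm in KO at 1000 cells, and 3.06 and 1.81 cpm in WT and 5.89 and 7.10 cpm in KO at 100 cells. This sum was highest in KO at 100 cells, where Gata6 gave 94, Sox7 41 and Sox17 31 of the counts, against 31, 46 and 3 in KO at 1000 cells.

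Summed over Pdgfra, Dab2 and Cubn, the level was 3.87 and 4.17 cpm in WT and 3.49 and 4.08 cpm in KO at 1000 cells, and 5.14 and 4.15 cpm in WT and 3.73 and 3.10 cpm in KO at 100 cells. Unlike the sum of the factors, it was lowest in a KO library of the smaller input. Dab2, an endocytic adaptor (ENSMUSG00000022150.12, chromosome 15, 6299788 to 6440712), was at 3.07 and 3.11 cpm in WT and 2.33 and 3.46 cpm in KO at 1000 cells, and at 3.85 and 2.04 cpm in WT and 2.83 and 2.49 cpm in KO at 100 cells. Its groups overlapped at both inputs, with KO/WT log2 ratios of -0.08 (SE 0.274, adjusted p = 0.842) and -0.16 (SE 0.375, adjusted p = 0.768). Differences as small as these errors were not detectable, and larger ones could also miss the threshold.

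Cubn, the endocytic receptor cubilin that visceral endoderm uses for uptake (ENSMUSG00000026726.10, chromosome 2, 13276338 to 13491813), had 12 and 12 counts in WT and 12 and 6 in KO at 1000 cells, and 5 and 27 in WT and 2 and 2 in KO at 100 cells. Both KO libraries at 100 cells lay below all 6 others, while the WT libraries at 100 cells held both the highest level and one of the lower ones. The KO/WT log2 ratio at 1000 cells was -0.31 (SE 0.578, adjusted p = 0.708). At 100 cells the KO/WT ratio of summed counts was 0.110 (interval 0.0282 to 0.309), and Cubn fell by edgeR's test (adjusted p = 0.0247). In KO the 100 to 1000 cell ratio was 0.228 (interval 0.0561 to 0.692; adjusted p = 0.0327), a call lost under 7 of 12 other settings (adjusted p up to 0.221), among them DESeq2 and leaving out KO replicate 1 at 1000 cells or either KO replicate at 100 cells. The KO/WT call at 100 cells was lost without WT replicate 2, which held 27 of the 32 WT counts (adjusted p = 0.143), without either KO replicate (0.115 and 0.113) and under DESeq2 (0.0556). The test of the difference between inputs gave an adjusted p of 0.102. Cubn thus had the opposite direction to Gata6 in the same libraries.

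Pdgfra, the PDGF receptor that marks early primitive endoderm (ENSMUSG00000029231.11, chromosome 5, 75152292 to 75198215), had 2 and 1 counts in WT and 3 and 3 in KO at 1000 cells, and 8 and 1 in WT and 10 and 6 in KO at 100 cells. At 1000 cells all 4 libraries were at or below 3 counts, so no ratio is given, and at 100 cells the groups overlapped with a log2 ratio of 0.53 (SE 0.925, adjusted p = 0.687). Without WT replicate 1 the ratio was 2.81 and passed the test (adjusted p = 0.0323), and without WT replicate 2 it was -0.43. Pdgfra passed the filter on low counts through a single KO library at 100 cells, so its contrasts with that group are not independent of the filter. In KO its 100 to 1000 cell ratio was 2.73 (interval 1.02 to 8.53; adjusted p = 0.113).

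Lama1 and Sparc had enough counts for small differences to be measured, and both were higher in KO at 1000 cells. Lama1 (ENSMUSG00000032796.7, chromosome 17, 67697259 to 67822647) was at 18.2 and 18.8 cpm in WT and 24.5 and 25.7 cpm in KO. The groups did not overlap, and the log2 ratio was 0.44 (SE 0.112, adjusted p = 0.00202). At 100 cells Lama1 was at 26.2 and 18.2 cpm in WT and 22.5 and 23.5 cpm in KO. There the WT libraries lay on both sides of KO, with a log2 ratio of 0.01 (SE 0.185, adjusted p = 0.965). Without WT replicate 1, the library of 26.2 cpm, Lama1 passed the test (adjusted p = 0.0274), and over the single omissions its ratio ranged from -0.22 to 0.30. The difference of the ratios between inputs was -0.38 and did not pass the test (adjusted p = 0.237).

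Sparc (ENSMUSG00000018593.8, chromosome 11, 55394500 to 55423183) was at 338.5 and 320.6 cpm in WT and 384.9 and 409.9 cpm in KO from 1000 cells. With 100 cells the values were 392.6 and 375.2 cpm in WT and 433.2 and 436.8 cpm in KO. KO lay above WT at both inputs, while WT at 100 cells reached the lower KO library at 1000 cells. For 1000 cells this gave a log2 ratio of 0.27 (SE 0.0598, adjusted p = 0.000524), for 100 cells one of 0.14 (SE 0.103, adjusted p = 0.331), and the ratios differed by -0.09 (adjusted p = 0.643). Without WT replicate 1 Sparc passed the test at 100 cells as well (0.18, adjusted p = 0.00467). In KO the 100 to 1000 cell log2 ratio was 0.13 (SE 0.0508, adjusted p = 0.0272), and in WT it was 0.21 (adjusted p = 0.516). The KO ratio between inputs missed the threshold under 7 of 13 other settings, DESeq2 among them.

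**Figure D4:**
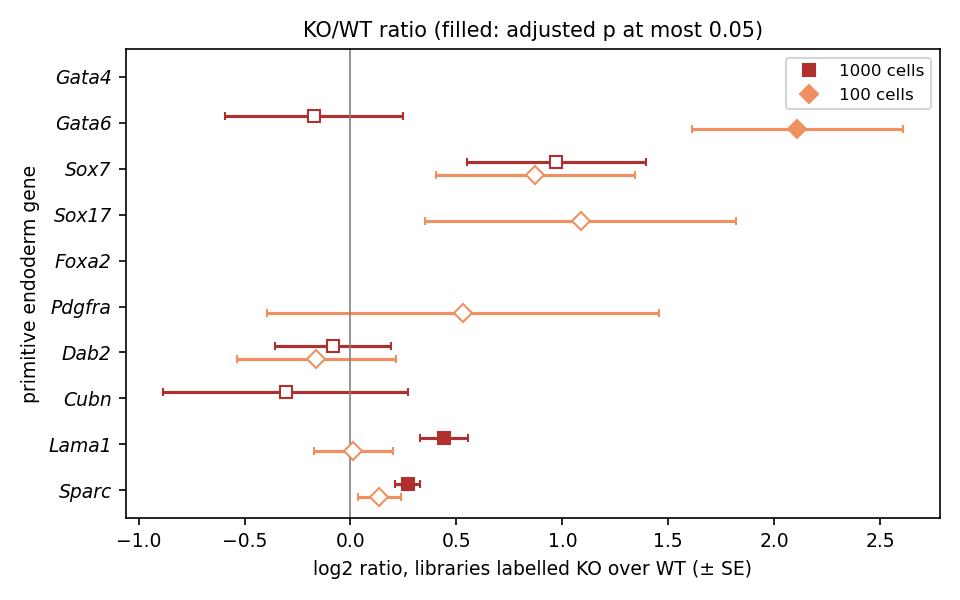
KO/WT log2 ratio with its SE (horizontal axis) for the primitive endoderm genes at 1000 cells (squares) and 100 cells (diamonds), filled where the adjusted p is at most 0.05; a gene that was not tested, or had a group at or below 3 counts in every library, has no point. Lama1 (0.44) and Sparc (0.27) are filled at 1000 cells and Gata6 (2.11) at 100 cells, and both Sox7 points lie to the right of 0 and are open.

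Counted over the 10 genes, 8 passed the filter of 10 counts in at least 1 library. At 1000 cells 2 passed the KO/WT test, both higher, against 41.5% of all tested genes, of which 20.9% were higher and 20.6% lower. The groups did not overlap for 4 genes with KO above WT (Sox7, Pdgfra, Lama1, Sparc) and 1 below (Sox17), against 34.6% and 34.7% of all tested genes. Pdgfra was at or below 3 counts in all 4 of these libraries, so its place above is not read against this share. Sox17 was at or below 3 counts in both KO libraries. At 100 cells 1 gene was called higher (Gata6) and 1 lower (Cubn), against 34.2% of all genes, 17.6% higher and 16.6% lower. There 3 genes lay above (Gata6, Sox7, Sparc) and 1 below without overlap, against 38.1% and 32.0%. These counts give the 10 genes no larger share of calls than genes in general. Over the 8 tested members the median log2 ratio came to 0.09 (1000 cells) and 0.33 (100 cells), beside -0.000901 and -0.000989 over all tested genes. Sox17 and Pdgfra are among the 8 and passed the filter only through the KO libraries at 100 cells. The median at 100 cells is therefore not independent of the filter and is not read as a shift of the members.

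Between inputs, 0 of the 10 genes were called in WT by edgeR, against 0.827% of all genes, 0.149% higher and 0.678% lower at 100 cells, and Sparc alone did not overlap, against 21.3% of genes above and 21.6% below. None of the 8 had an unadjusted p under 0.05 in this comparison, where 2054 of all genes had, and DESeq2 also called 0. In KO, 3 genes were called higher at 100 cells (Gata6, Sox17, Sparc) and 1 lower (Cubn), against 52.1% of all genes, 27.3% higher and 24.8% lower. Sox17 passed the filter only through the KO libraries at 100 cells, where it was high, so its call is not read against this share; 3 calls remain without it. There 4 genes lay above without overlap (Gata6, Sox17, Pdgfra, Sparc) and 2 below (Lama1, Cubn), against 37.6% and 37.8%. Sox17 and Pdgfra passed the filter only through the KO libraries at 100 cells, so their place above is not read against this share either. Gata6 and Sparc remain above without them. Gata6 was the one member whose KO/WT ratio differed between inputs by test, against 16.3% of all genes, 9.28% with a higher and 7.05% with a lower ratio at 100 cells. The comparisons share libraries, so their counts are not independent of each other.

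Genes that act around these 10 were followed in lists of related function. Over all tested genes, 20.9% were called higher and 20.6% lower in KO at 1000 cells, and 17.6% and 16.6% at 100 cells. The counts of each list below stand beside these shares. In the FGF list, the signal upstream of Gata6, 2 of 5 genes were higher and 2 lower in KO at 1000 cells, with a median log2 ratio of -0.20. Nanog, which opposes Gata6, rose by 1.13 (SE 0.0573, adjusted p = 1.43e-15) and the ligand Fgf4 by 0.32 (SE 0.067, adjusted p = 0.000319). The receptor Fgfr1 fell by 0.95 on the log2 scale (adjusted p = 9.08e-08) and the adaptor Grb2 by 0.32 (adjusted p = 0.00386). At 100 cells the median was also -0.20, with Nanog at 0.58 and Grb2 at 0.38 called higher and Fgfr1 at -1.13 called lower. Grb2 therefore had opposite calls at the 2 inputs.

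Among 13 other factors and receptors of extraembryonic endoderm, 9 were tested, and 1 was higher and 2 lower in KO at 1000 cells (median -0.45). The endocytic receptor Lrp2 fell at both inputs, with log2 ratios of -1.13 (SE 0.148) and -1.22 (SE 0.19), and the ligand Pdgfa fell too, by 0.34 and 0.87. The basement membrane protein Nid2 was higher in KO at 1000 cells (0.23) and the only gene of these lists called between inputs in WT (0.77, adjusted p = 0.0215). At 100 cells 1 gene was higher and 3 lower in KO (median -0.34). Foxa1, a forkhead factor, had 4 and 9 counts in WT and 0 in both KO libraries at 100 cells, at least 2.37-fold lower against a limit of 3 counts per library.

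Of 15 genes of parietal endoderm and basement membrane, the tissue rich in Sparc and Lama1, 14 were tested. In KO at 1000 cells 5 were higher and 2 lower, with a median log2 ratio of 0.48. Vim, an intermediate filament protein, rose by 0.99, and the collagen-modifying enzymes Plod2 and P4ha1 by 0.78 and 0.74. Pth1r, the parathyroid hormone receptor, fell by 1.61 on the log2 scale and P4hb by 0.51. At 100 cells 2 were higher and 3 lower (median -0.10). Vim at 1.39 and P4ha1 at 0.76 were again higher, and P4hb at -0.47 again lower. Col4a1, a type IV collagen chain, had 109 and 103 counts in WT and 27 and 33 in KO at 100 cells, against 90 to 119 in the 4 libraries at 1000 cells, a log2 ratio of -2.07 (SE 0.281, adjusted p = 0.000808). Fst, a secreted activin-binding protein, was at -2.28 (SE 0.522, adjusted p = 0.00925). Col4a1 thus fell in the libraries where Gata6 rose, while Lama1 and Sparc did not pass the test there.

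Of 14 visceral endoderm genes 10 were tested, and in KO at 1000 cells 4 were lower and the other 6 did not pass the test (median -0.20). The apolipoprotein Apom fell by 2.97 on the log2 scale, the peptidase Dpp4 by 1.05 and the tight junction protein Cldn6 by 0.85. At 100 cells 3 were higher and 3 lower (median -0.31), with Apom at -2.62, Cldn6 at -0.99 and Dpp4 at -0.97 again lower. The 3 higher genes were Ttr, Slc39a8 and Rbp4, of which Ttr passed the filter on low counts only through the KO libraries at 100 cells and so could only differ. Ttr, a carrier of thyroid hormone made by visceral endoderm and also by the choroid plexus of the brain, had 141 and 143 counts in KO at 100 cells and 0 in the other 6 libraries. Against a limit of 3 counts per library it was at least 35.9-fold higher than in WT at 100 cells and at least 45.7-fold higher than in KO at 1000 cells. Slc39a8, a metal transporter, had 0 and 3 counts in WT and 19 and 15 in KO at 100 cells, a ratio of 9.94 (interval 3.13 to 50.6; adjusted p = 0.0192), and the retinol carrier Rbp4 was at 0.92 (SE 0.244, adjusted p = 0.0175). These genes rose in the 2 libraries that also held Mbp and Snap25, and the part of other cell types in their values was not tested.

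Between inputs in KO, calls in these lists went both ways. Of the tested genes at 100 against 1000 cells, 1 was higher and 2 lower in the FGF list. Among the other factors and receptors 2 were higher (Nid2 at 0.58 among them). The parietal list had 5 higher and 4 lower, and the visceral list 5 higher. Over all tested genes 27.3% were higher and 24.8% lower in this comparison. Ttr, 1 of the visceral calls, passed the filter only through the KO libraries at 100 cells, so its call is not read against these shares. In the parietal list Pth1r at 1.76 and Serpinh1, a collagen chaperone, at 0.80 led the higher genes, and Col4a1 at -1.57 and Fst at -1.39 the lower ones. Nanog was lower at 100 than at 1000 cells in KO (-0.51), in the libraries where Gata6 was higher. Nanog nevertheless lay above WT in those libraries, at 445.6 and 420.3 cpm against 275.7 to 284.9 cpm in WT at both inputs. The medians were -0.09 for the FGF list, -0.10 for the other factors and receptors, 0.07 for the parietal list and 0.36 for the visceral list, beside 0.01 for the 8 tested primitive endoderm genes and -0.00124 for all genes. Ttr enters the visceral median, and Sox17 and Pdgfra enter that of the primitive endoderm genes. These medians are therefore not independent of the filter.

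**Figure D5:**
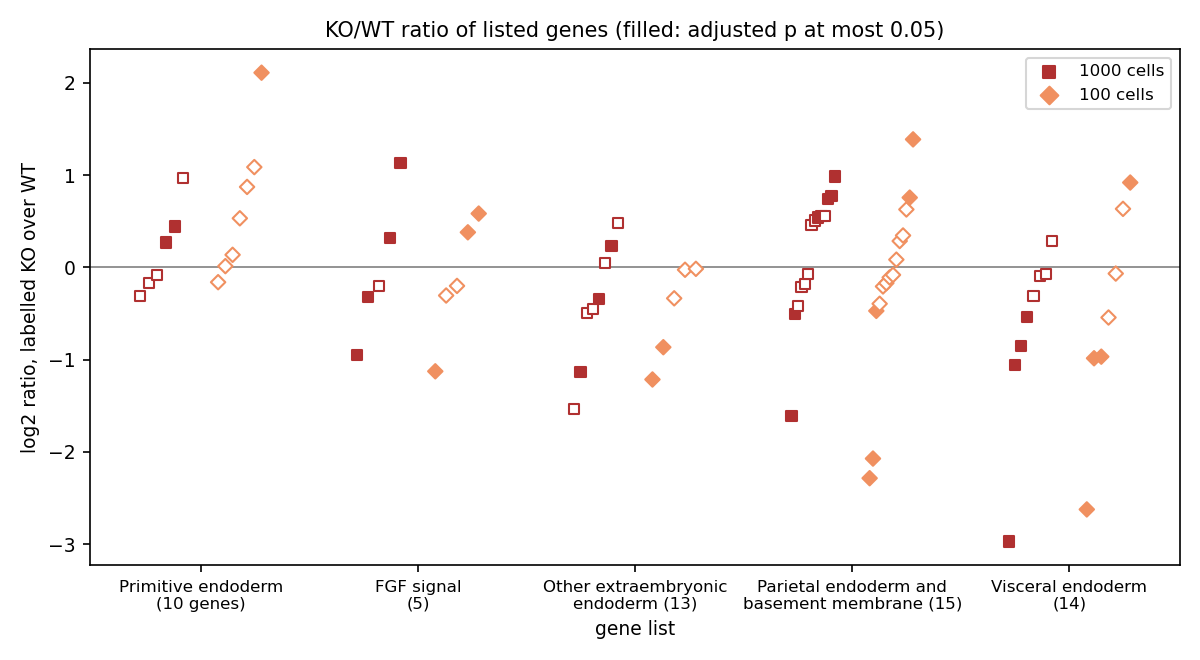
KO/WT log2 ratio (vertical axis) of each tested gene of the primitive endoderm genes and of 4 related lists, at 1000 cells (squares) and 100 cells (diamonds), 1 point per gene, filled where the adjusted p is at most 0.05; genes with a group at or below 3 counts in every library, among them Ttr at 100 cells, have no point. Each list holds points on both sides of 0, and Gata6 (2.11) is the highest point shown at 100 cells.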

How the data were processed

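The deposited table holds raw counts per gene for all 8 libraries. According to the study's methods and processing notes, the authors removed ribosomal reads with Bowtie2 2.1.0, mapped the rest to mm10 with TopHat2 2.0.10 and counted over GENCODE M4 genes with HTSeq 0.6.1 in union mode without strand. Reads assigned to several genes or positions were discarded, so overlapping genes lost reads, and removal of PCR duplicates was not stated. The members and lists were chosen with earlier results of these data known. Named genes were all 10 members, Zbtb24 and up to 3 called genes per direction of each pathway list. The highest marker of each other cell type was also named. Mbp, Snap25, Hbb-bs, Gja1, Apoe and Nid1 were chosen after their values were seen. 1 gene of the lists is counted in them but not reported here by name. Positions and exon lengths came from GENCODE M21 (GRCm38), which matched 42425 identifiers (97.96%).

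A gene entered the tests when some library held 10 or more of its counts (16816 genes). The two-sided quasi-likelihood test of edgeR 4.0.16 (R 4.3.3) was used with TMM scaling and Benjamini-Hochberg adjustment at 0.05. This test gives no SE, so each SE was derived as the absolute log2 ratio over the square root of the test's F statistic. Each comparison was fitted on its 4 libraries, and the interaction on all 8. Intervals are 95% exact. A group was taken as undetected when no library exceeded 3 counts, and a fold against a group at 0 uses 3 counts per library. Alternatives were DESeq2 1.42.0, other scalings and filters, the edgeR exact test, thinning to the smallest total, 1 common fit, a replicate block and leaving out each library. The scripts were tested on simulated data.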

Additional observations from a re-analysis of the deposited data

Results flagged for a closer look

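The difference of the KO/WT log2 ratio between 100 and 1000 cells passed edgeR's test (adjusted over all genes) for 1 primitive endoderm gene and 6 genes of the related lists. Gata6 differed by 2.33 (SE 0.654, adjusted p = 0.0268), from -0.17 to 2.11. The adaptor Grb2 differed by 0.75 (SE 0.141, adjusted p = 0.00403), from -0.32 to 0.38. Apoe differed by 0.51 (SE 0.143, adjusted p = 0.0258), from -0.54 to -0.07. The other 4 genes had a lower ratio at 100 cells. Col4a1 differed by -1.95 (SE 0.322, adjusted p = 0.00221), Nid1 by -0.70 (SE 0.150, adjusted p = 0.00753), Fgf4 by -0.58 (SE 0.133, adjusted p = 0.0115) and Nanog by -0.50 (SE 0.115, adjusted p = 0.0112). In 16.3% of all tested genes the ratio differed in this way. Groups of 2 libraries are too small for a test of single outlying libraries.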

How the results depend on the processing

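Alternatives were compared over 39 log2 ratios of the primitive endoderm genes, in 507 comparisons. In 444 the ratio kept its direction and side of the threshold, in 27 it lost and in 10 gained a call, and in 26 it changed sign; the cause was not tested. At 1000 cells Lama1 and Sparc were called under all 13 alternatives. At 100 cells the 2 calls became 1 under DESeq2, 0 among genes with at least 10 counts in every library (neither gene was tested there) and 0 to 6 when single libraries were left out. The 6 came without WT replicate 1 (Gata6, Sox17, Pdgfra, Lama1, Sparc, Cubn) and the 0 without KO replicate 2. Leaving out a library gave 0 to 2 calls between inputs in WT (main count 0), the 2 (Lama1 and Sparc) without the second WT library at 100 cells. It gave 2 to 4 in KO (main count 4), with Gata6 and Sox17 called each time, and 0 to 3 for the difference of ratios (main count 1), the 3 (Gata6, Sox17, Cubn) without the first WT library at 100 cells. In KO between inputs the 4 calls became 2 under DESeq2, with no filter, with thinned counts and in 1 fit of all libraries, and 1 with at least 10 counts in every library. Sox17 and Pdgfra passed the main filter only through the KO libraries at 100 cells. Their calls in every comparison with those libraries, the single omissions included, are therefore not independent of that filter. For the difference of ratios, DESeq2, thinned counts and at least 10 counts in every library gave 0, and no filter gave 2.

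Ratios that changed sign were all uncalled. With thinned counts Gata6 at 1000 cells was 0.20, Lama1 at 100 cells was -0.0096 and the Sox7 difference between inputs was 0.10. Scaling by library size alone gave Lama1 -0.0021 at 100 cells and the Dab2 difference 0.0017, which was 0.0047 with at least 10 counts in every library. Leaving out single libraries gave, at 1000 cells, -0.40 to 0.17 for Dab2 and -0.97 to 0.18 for Cubn. At 100 cells it gave -0.43 to 2.81 for Pdgfra, -0.57 to 0.35 for Dab2 and -0.22 to 0.30 for Lama1. Between inputs in WT it gave -1.77 to 0.023 for Gata6, -0.29 to 0.11 for Sox7, -0.87 to 1.12 for Sox17, -0.42 to 2.87 for Pdgfra, -0.63 to 0.34 for Dab2, -0.052 to 0.52 for Lama1 and -0.71 to 1.27 for Cubn, and in KO -0.37 to 0.20 for Dab2. For the difference between inputs it gave -0.24 to 0.14 for Sox7, -1.44 to 1.80 for Pdgfra and -0.45 to 0.47 for Dab2.

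Over all genes, leaving out a library moved the calls at 100 cells between 2102 and 9551 (main count 5756), those between inputs in WT between 6 and 2631 (main count 139) and those of the difference between 727 and 5635 (main count 2745). In WT between inputs other settings gave 3 with thinned counts, 79 with scaling by library size alone, 212 under DESeq2, 434 by the exact test, 463 with no filter and 676 in 1 fit. At 1000 cells scaling by library size alone gave 2778 higher and 4288 lower calls in place of 3514 and 3466. Same-numbered libraries share only a number (r = 0.154 and 0.169 between genotypes, -0.124 between WT inputs and -0.039 between KO inputs, 8365 genes). A replicate block left the numbers of called members at 2, 2, 0, 4 and 1, and gave 285 calls over all genes between inputs in WT; a crossed pairing, added after the data were seen, gave 512 and 0 members. With genes of at least 1 cpm, the chromosome 1 medians were 0.48 and 0.41. By the longest transcript, Sparc was 72.9 times Lama1 per kb in place of 45.0 times. The KO ratio of 100 to 1000 cells, taken on the number of markers above 3 counts in place of summed levels, went from 1.31 to 1.00 for neurons, from 5.16 to 1.17 for oligodendrocytes and from 1.40 to 1.56 for astrocytes.

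Groups of 2 libraries and fewer than 30 counts in most libraries limit the values of Gata4, Gata6, Sox7, Sox17, Pdgfra and Cubn, and a difference inside their intervals was not detectable. Foxa2 gave no value.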
